A study of Mus musculus with 6 samples.

Results

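Expression of 7 genes of the T helper 17 (Th17) program was measured: the cytokines Il17a, Il17f, Il21 and Il22 and the transcription factors Rora, Ahr and Batf. They were taken by name, 7 of the 22180 genes that a probe set with exactly 1 gene symbol represented on the arrays. Each of the 7 had 1 such probe set. CD4 T cells of OT-II transgenic mice, whose T cell receptor recognises an ovalbumin peptide, were purified by negative selection from spleens and lymph nodes of animals co-housed to 12 to 16 weeks of age. They were mixed with antigen-presenting cells and the peptide for 72 hours and purified again for CD4 before RNA was taken. The low arginine group (3 arrays) was kept in RPMI-1640 with 10% dialyzed serum and 1% of the normal arginine, which is 12 uM. The control group (3 arrays) was kept in the same medium with its normal arginine.

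Both groups carried the transgene, both were stimulated, and the labels name no cytokine added to steer the cells toward Th17. Each RNA came from a whole CD4 population, so fewer cells of a type and less RNA per cell cannot be told apart. Per the labels the replicates are biological, but they do not say which mice went into which array.

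Th17 cells are CD4 T cells that defend mucosal surfaces and drive inflammation, and they are named for the cytokine they secrete, interleukin 17. Nuclear receptors, among them RORα, switch the program on, with BATF and IRF4 opening its genes after stimulation through the T cell receptor and STAT3 acting downstream of interleukins 6, 21 and 23. The aryl hydrocarbon receptor, a sensor of small aromatic molecules, adds expression of Il22.

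Il17a and Il17f lie close to each other on chromosome 1 and encode related cytokines, and their promoter sequences are shown because these were the cytokine genes above the dim limit whose groups did not overlap. The sequences are those of RefSeq (GRCm38.p6), from 250 bases before to 50 bases after the annotated start, written 5′ to 3′ on the strand of the gene. Capitals mark matches to AGGTCA, core letters of the ROR response element, and TGANTCA, the site of AP-1 factors such as BATF with JUN. Bases flanking AGGTCA were not searched, so a match is not a full ROR element. The Il17a window is chr1:20730655-20730954 on the plus strand and the Il17f window is chr1:20784221-20784520 on the minus strand.
Il17a: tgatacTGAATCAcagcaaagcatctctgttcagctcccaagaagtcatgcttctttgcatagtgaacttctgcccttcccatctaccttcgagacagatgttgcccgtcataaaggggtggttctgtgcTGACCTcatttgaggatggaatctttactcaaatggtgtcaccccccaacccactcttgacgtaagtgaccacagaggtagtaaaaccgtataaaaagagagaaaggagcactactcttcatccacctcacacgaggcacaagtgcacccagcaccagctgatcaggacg
Il17f: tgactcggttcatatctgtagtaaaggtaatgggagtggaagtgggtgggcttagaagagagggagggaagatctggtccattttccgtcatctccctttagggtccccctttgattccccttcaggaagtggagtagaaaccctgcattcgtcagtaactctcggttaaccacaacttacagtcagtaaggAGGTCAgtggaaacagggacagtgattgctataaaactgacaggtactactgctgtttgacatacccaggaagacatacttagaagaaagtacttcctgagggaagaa

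The ROR letters stood once in each window, in reverse orientation 120 bases before the Il17a start and in forward orientation 58 bases before the Il17f start. The AP-1 letters stood once in the Il17a window, 244 bases before the start. Both strands were searched in all 32851 RefSeq promoter windows of 300 bases, of which 16.3% held the ROR letters and 7.81% the AP-1 letters. A further 2 motifs were searched: GCGTG (bound by the aryl hydrocarbon receptor, in 32.4% of windows) and TTCNNNGAA (bound by STAT factors, 8.3%). Of the 6 members with a window in the table, Il21 and Rora held GCGTG once each, and none held TTCNNNGAA. These matches describe letters in a short window, and binding was not measured.

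Il17a was the member whose change passed the threshold (adjusted p under 0.05). Its log2 values were 3.79, 4.44 and 4.36 in low arginine replicates 1, 2 and 3, against 2.63, 3.40 and 3.00 in control replicates 1, 2 and 3. Every low arginine array lay above every control array, with 0.39 between the nearest arrays of the groups. Il17a averaged 4.20 ± 0.35 in low arginine and 3.01 ± 0.38 in control (SD, n = 3 each), a rise of 1.19 on the log2 scale or 2.28-fold (95% interval 1.55 to 3.33, limma, Benjamini-Hochberg adjusted p = 0.0197). Il17a encodes the founding cytokine of the family, which makes epithelial and stromal cells recruit neutrophils. Its control level lay within 1 log2 of the limit below which genes were left out as dim (2.48), so the size of the rise is uncertain. Removing low arginine array 2 (change 1.07, adjusted p = 0.0879) or array 3 (1.10, 0.0837) ended the call. Over all alternatives the change lay between 0.89 and 1.39 and the adjusted p between 0.00405 and 0.0879.

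Il17a was 1 of 6 members tested that passed, where 12.2% of all 14787 genes tested passed with 5.19% higher and 6.98% lower in low arginine. It was also the 1 of 6 at an unadjusted p below 0.05, where 27.3% of all genes tested lay. The remaining member, Il22, was too dim to be tested. The groups did not overlap for 2 of the 6 tested members, Il17a and Il17f, against 32.2% of all genes tested. The median change of the 6 was 0.41, against 0.01 over all genes tested. Of the 6 changes 5 were positive, as were 7624 of all 14787.

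**Figure D1:**
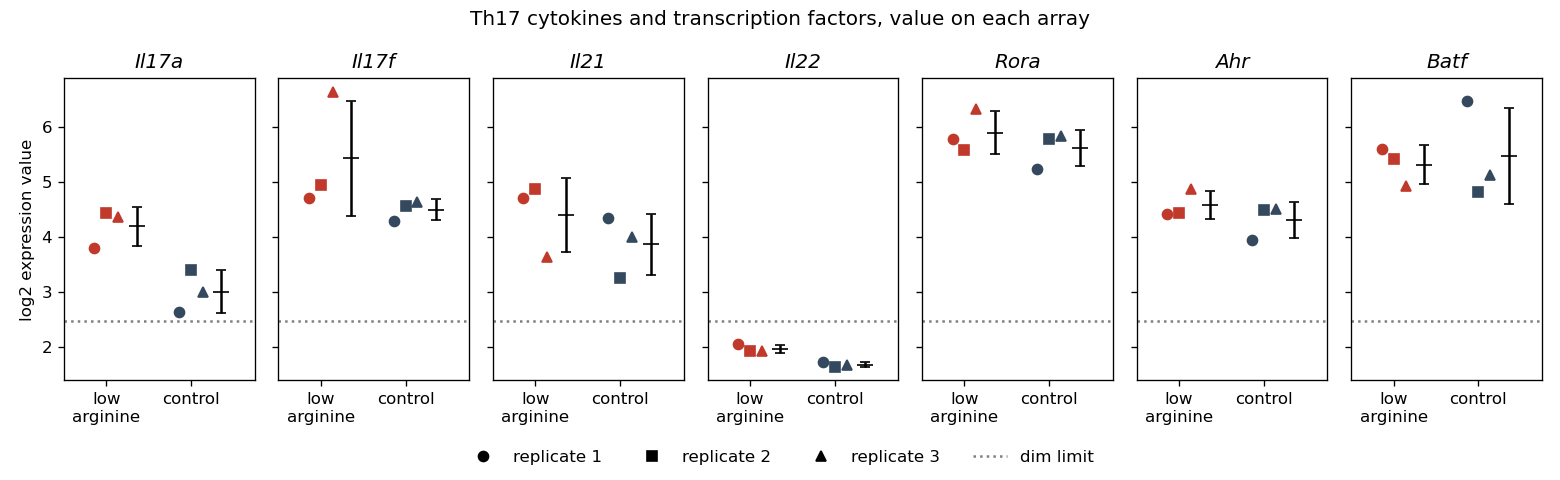
Log2 expression value of the 7 genes on each array (y axis), with low arginine arrays in red left of control arrays in dark blue, symbols for the replicate number and bars for mean ± SD over 3 arrays. The dotted line is the limit for dim genes (2.48), panels are separate probe sets whose levels are not comparable with each other, and the low arginine values of Il17a (3.79 to 4.44) lie above its control values (2.63 to 3.40).

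Il17f, the nearest relative of Il17a, did not pass. Its log2 values were 4.71, 4.95 and 6.63 in low arginine replicates 1, 2 and 3, against 4.29, 4.57 and 4.64 in the control replicates. The groups did not overlap, but the nearest arrays were 0.07 apart, and low arginine replicate 3 stood far above all others. The change was 0.93 on the log2 scale (1.91-fold, 95% interval 0.92 to 3.95, limma adjusted p = 0.237). Without low arginine replicate 3 it was 0.33 (adjusted p = 0.309). The SD of Il17f over the low arginine arrays was 1.04, a spread that 0.122% of all genes tested reached in that group, where the median was 0.12. In control arrays its SD was 0.19, near the median of 0.18.

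Il21 encodes a cytokine that Th17 and follicular helper T cells secrete and that feeds back on the cells making it. On the log2 scale it had 4.71, 4.87 and 3.63 in low arginine, against 4.34, 3.26 and 4.01 in control. The groups overlapped: low arginine replicate 3 lay below control replicates 1 and 3. The change of 0.53 (1.45-fold, 95% interval 0.79 to 2.65) did not pass (limma adjusted p = 0.431). It was 0.92 without low arginine replicate 3 (adjusted p = 0.155) and 0.23 without control replicate 2 (0.798). With array weights it was 1.08 and passed (adjusted p = 0.0192). These weights lay between 0.24 and 5.19, the highest falling on control replicate 2, the array with the lowest Il21.

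Il22 encodes a cytokine that acts on epithelial barriers rather than on T cells. Log2 values of Il22 were 2.05, 1.93 and 1.94 in low arginine, against 1.73, 1.65 and 1.68 in control, all under the limit for dim genes. The groups did not overlap, with 0.20 between their nearest arrays. Fitted with no filter on dim genes, the change was 0.29 (1.22-fold, 95% interval 1.06 to 1.41, unadjusted p = 0.0127, limma adjusted p = 0.104). It passed with array weights and no filter (0.31, adjusted p = 0.0356), an alternative chosen after seeing the data. Iltifb, a near-identical copy of Il22 whose transcripts may not be told apart from it on an array, was as dim. It had 1.65 to 1.83 in low arginine, against 1.36 to 1.51 in control (change 0.27, unadjusted p = 0.0261, limma adjusted p = 0.16 with no filter). No detection call was at hand to say whether either gene was expressed in either medium.

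The transcription factors showed no change that passed. Rora encodes RORα, a nuclear receptor that contributes to the Th17 program. Log2 values of Rora were 5.78, 5.58 and 6.33 in low arginine, against 5.23, 5.79 and 5.83 in control. The groups overlapped, and the change was 0.28 (1.22-fold, 95% interval 0.84 to 1.77, limma adjusted p = 0.509). It was 0.07 with array 3 of low arginine removed and 0.09 with control array 1 removed.

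Ahr encodes the aryl hydrocarbon receptor. The arrays gave log2 values of 4.42, 4.44 and 4.87 in low arginine, against 3.94, 4.50 and 4.51 in control. Low arginine replicates 1 and 2 lay just below control replicates 2 and 3. The change was 0.26 (1.20-fold, 95% interval 0.87 to 1.64, limma adjusted p = 0.468), or 0.07 with control array 1 removed and 0.11 with array 3 of low arginine removed.

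Batf encodes an AP-1 factor that binds with JUN proteins and IRF4. On the log2 scale Batf had 5.60, 5.42 and 4.92 in low arginine, against 6.46, 4.82 and 5.12 in control. Control replicate 1 lay highest of all, and the low arginine arrays fell between it and control replicate 2. The change was -0.15 (0.90-fold, 95% interval 0.47 to 1.72, limma adjusted p = 0.863). It turned positive without control replicate 1 (0.35) or low arginine replicate 3 (0.04), so no direction is given. The SD of Batf in control was 0.87, a spread that 0.791% of all genes tested reached there.

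**Figure D2:**
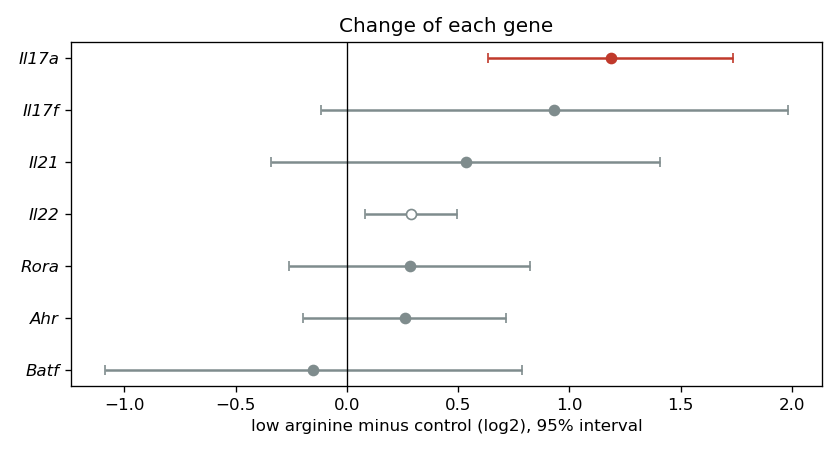
Log2 change in low arginine against control (x axis) for the 7 genes, with 95% intervals from limma. Red marks the gene that passed at an adjusted p under 0.05 (Il17a, 1.19), and the open point is Il22 (0.29), fitted with no filter on dim genes. The intervals of the other 5 include 0.

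The members did not follow a common order over the arrays. Low arginine replicate 3 had the highest Il17f, Rora and Ahr of the 6 arrays and, of the low arginine arrays, the lowest Il21 and Batf. Low arginine replicate 2 had the highest Il17a and Il21. Control replicate 1 had the lowest Il17a, Il17f, Rora and Ahr and the highest Batf. Control replicate 2 had the lowest Il21, Il22 and Batf. Low arginine arrays held the highest value for 6 of the 7 genes, the dim Il22 among them, and the lowest for 0. The like count over all genes was not made, so no meaning is given to this one. Control replicate 1 also stood apart over all genes tested. On the second principal component (22.5% of the variance) it scored -35.2, against 8.53 and 22.3 in the other controls.

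**Figure D3:**
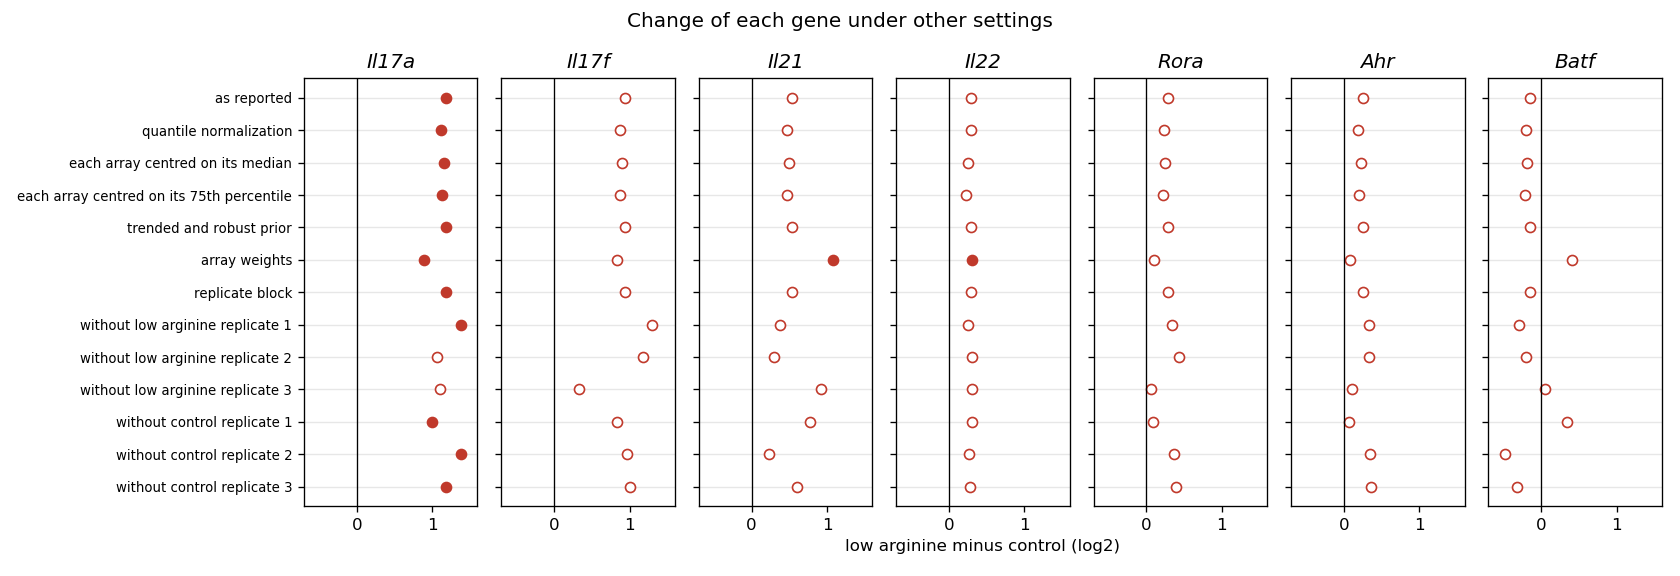
Log2 change in low arginine against control (x axis) for the 7 genes as reported and under 12 other settings (y axis), filled where the adjusted p was under 0.05. Il22 was fitted with no filter throughout, and 3 settings that do not alter these changes are not drawn. Il17a stays positive (0.89 to 1.39) and is drawn as an open point without low arginine replicate 2 or 3, and Batf lies on both sides of 0.

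The genes whose values followed each tested member most closely over the 6 arrays were listed by Pearson correlation among 13440 other genes. As there are 2 groups of 3 arrays, a shared difference between groups raises such a correlation. The highest of so many r over 6 arrays can also be high without any relation between the genes. No p was computed, and no relation is read from these lists. For Il17a they were Rps24, Tbpl1 and Zfand3 (r = 0.995 to 0.997), of which Tbpl1, a relative of the TATA-binding protein, rose (0.65, limma adjusted p = 0.0296). For Il17f they were Abca1, Uncx and Adgrg1, and for Il21 Ppm1e, Ankib1 and Rsad2. For Rora they were Yap1, Zfp646 and Arhgap27, for Ahr Zhx2, Smyd3 and Usp11, and for Batf Nipa2, Pglyrp2 and Golt1b. These had r of 0.980 to 0.991, and none of these 15 genes passed in limma (adjusted p = 0.262 to 0.995).

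The genes around the program were read from 12 lists with 97 genes beyond the members, of which 93 were matched and 81 were bright enough to be tested. The other 4 were not analysed here. Of the 81, 7 rose and 8 fell, or 18.5%, beside 12.2% of all genes tested. The median change was 0.06. The lists are short, so the calls in each are given as counts and not read as a result about the list. The core regulators Stat3, Irf4 and Maf were not among the 15. Stat3, which carries the signals of interleukins 6, 21 and 23, changed by -0.22 (limma adjusted p = 0.208). Irf4, the partner of BATF, changed by 0.54 (adjusted p = 0.233), and Maf, a further factor of the program, by -0.48 (0.389). Irf4 passed without control replicate 1 (0.80, adjusted p = 0.0291).

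Among the receptors and signals that start the program, 1 of 10 tested rose and 0 fell (median change 0.35), beside 5.19% and 6.98% of all genes tested. Of the 10 changes 8 were positive, and 6 of the 10 lay at a limma unadjusted p below 0.05, beside 27.3% of all genes tested. The gene that passed was Il6ra, the binding chain of the interleukin 6 receptor. Il6ra had log2 values of 7.77, 7.56 and 8.23 in low arginine, against 5.49, 5.96 and 6.31 in control. All low arginine arrays lay more than 1 log2 above all controls, a rise of 1.94 (3.82-fold, limma adjusted p = 0.0047). It passed in all 15 alternatives tried. The signalling chain Il6st changed by 0.50 (adjusted p = 0.0627) and the TGF-beta receptor Tgfbr1 by 1.01 (0.0803). Tgfbr2 (0.44, adjusted p = 0.0872), Smad2 (0.37, 0.0589) and Il1rap (0.32, 0.139) did not pass either. Il21r, the receptor of interleukin 21, changed by 0.12 (adjusted p = 0.668). Il23r, the receptor chain that sustains Th17 cells, was too dim to be tested, with 2.32 ± 0.16 in low arginine and 2.34 ± 0.22 in control (SD, n = 3 each).

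Of 13 transcription factor partners tested, 0 rose and 2 fell, beside 5.19% and 6.98% of all genes tested. Hif1a, a hypoxia factor that promotes the Th17 program, fell by 0.50 on the log2 scale (limma adjusted p = 0.035). Fosl2, an AP-1 factor, fell by 1.33 (adjusted p = 0.0176). Fosl2 was also the 1 of 9 tested that passed in the list of BATF relatives and AP-1 factors, beside 12.2% of all genes tested. Batf3, the closest relative of Batf on that list, changed by -0.73 (adjusted p = 0.142), and Junb, a dimer partner of BATF, by 0.04 (0.861). With control array 2 removed (-0.49 and -1.16), or any single array of low arginine, Hif1a and Fosl2 did not pass (adjusted p = 0.0635 to 0.133).

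Of 10 other effector and surface genes tested, Tnf rose and Il24 fell, where 5.19% of all genes tested rose and 6.98% fell. Tnf, a pro-inflammatory cytokine, averaged 9.17 ± 0.15 in low arginine and 7.98 ± 0.29 in control (SD, n = 3 each), a rise of 1.18 (2.27-fold, limma adjusted p = 0.0064). Tnf passed in all 15 alternatives. Il24, a cytokine of the interleukin 10 family, had 5.65, 4.05 and 4.82 in low arginine, against 9.76, 7.13 and 6.89 in control. It fell by 3.09 (adjusted p = 0.0364), with control replicate 1 far above the rest. The Il24 call was lost when control array 2 (-3.48, adjusted p = 0.0792) or array 1 (-3.49, 0.0597), 2 (-2.69, 0.135) or 3 (-3.08, 0.12) of low arginine was removed.

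Csf2, the cytokine GM-CSF, had 5.37, 4.41 and 3.73 in low arginine, against 3.46, 2.78 and 2.99 in control. The groups did not overlap, and the change of 1.43 just missed the threshold (limma adjusted p = 0.0511). Csf2 passed in 6 of 15 alternatives, among them removal of control array 1 (1.62, adjusted p = 0.0254) or of array 3 of low arginine (1.81, 0.039). With its 2 probe sets averaged the change was 0.75 (adjusted p = 0.108). Ccr6, the chemokine receptor typical of Th17 cells, had 2.55, 2.91 and 3.68 in low arginine, against 2.41, 2.50 and 2.45 in control (change 0.59, adjusted p = 0.189). The Ccr6 control mean (2.45) lay under the limit for dim genes (2.48), so the gene was tested only through its low arginine level. Il10, which restrains inflammation, had 2.51, 2.38 and 2.40 in low arginine, against 5.04, 2.18 and 2.73 in control (adjusted p = 0.442). Only control replicate 1 was high, and the low arginine mean of Il10 (2.43) lay under the limit for dim genes.

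The list of receptors of the interleukin 17 and 22 families of cytokines also held Il10ra. Of the 7 tested 1 rose and 1, Il10ra, fell, beside 5.19% and 6.98% of all genes tested. Il17rb, the receptor chain for interleukin 25, rose by 0.96 on the log2 scale (limma adjusted p = 0.023). The control mean of Il17rb (2.99) lay little above the limit for dim genes (2.48), so the size of its rise is uncertain. Il10ra, the binding chain of the interleukin 10 receptor, fell by 1.31 (adjusted p = 0.0033), and passed in all 15 alternatives. Il17ra, the chain that the receptors of IL-17A and IL-17F share, changed by 0.16 (adjusted p = 0.706). Neither Il17rc (-0.07, adjusted p = 0.738) nor Il10rb (0.04, 0.913) passed. Il22ra1, which with Il10rb forms the receptor for interleukin 22, was too dim to be tested. None of the 3 other family ligands tested (Il17c, Il17d and Il25) passed in limma, at an adjusted p or at an unadjusted p below 0.05. Il17rb did not pass once control array 2 (0.90) or array 1 (0.93) or 3 (0.78) of low arginine was removed (adjusted p = 0.0756 to 0.0962).

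Of 9 genes that restrain Th17 fate, 1 rose and 0 fell, beside 5.19% and 6.98% of all genes tested. Of the 9 changes 5 were positive and 4 negative. Foxp3, the factor of regulatory T cells that binds and inhibits RORα, had 8.86, 8.71 and 9.97 in low arginine, against 7.59, 7.09 and 6.92 in control. It rose by 1.98 (3.96-fold, limma adjusted p = 0.0117). Every low arginine array lay above every control array. Foxp3 did not pass without control replicate 2 (1.93, adjusted p = 0.0591). At a limma unadjusted p below 0.05 lay 6 of the 9, beside 27.3% of all genes tested. Besides Foxp3 these were Egr2 (0.48, adjusted p = 0.0944) and Bach2 (0.55, 0.128), higher in low arginine. Gfi1 (-0.65, adjusted p = 0.085), Ptpn2 (-0.38, 0.0879) and Ets1 (-0.27, 0.117) were lower.

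Of 7 targets of the aryl hydrocarbon receptor, 5 were too dim to be tested, among them Cyp1b1 and the repressor Ahrr. Cyp1a1, its best known target, changed by 0.41 (limma adjusted p = 0.148), with a control mean (2.50) close to the limit for dim genes (2.48). Tiparp, a target that dampens the receptor, fell by 1.26 (adjusted p = 0.0114), but missed the threshold with control array 2 (-1.16, 0.0575) or array 3 of low arginine (-1.23, 0.0526) removed. The mean of its 2 probe sets changed by -0.78 (adjusted p = 0.0148). Arnt, the partner the receptor needs to bind DNA, changed by 0.21 (adjusted p = 0.332).

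Of 5 clock genes that ROR factors drive or that share their element, 2 rose and 0 fell, beside 5.19% and 6.98% of all genes tested. Nr1d2, which encodes the repressor REV-ERBβ, had 5.90, 5.65 and 6.10 in low arginine, against 3.51, 4.10 and 4.74 in control, a rise of 1.76 (3.40-fold, limma adjusted p = 0.0104). Cry1, a clock repressor, rose by 0.70 (adjusted p = 0.0194). Nr1d1, the relative of Nr1d2 that competes with ROR factors in Th17 cells, changed by 0.41 (adjusted p = 0.283). Removing control array 2 ended the calls of Nr1d2 (1.76, adjusted p = 0.0543) and Cry1 (0.71, 0.0757), and so did removing array 3 of low arginine (1.66, 0.0507, and 0.63, 0.0836). Cry1 also missed the threshold with array 2 of low arginine removed (0.65, 0.0891).

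**Figure D4:**
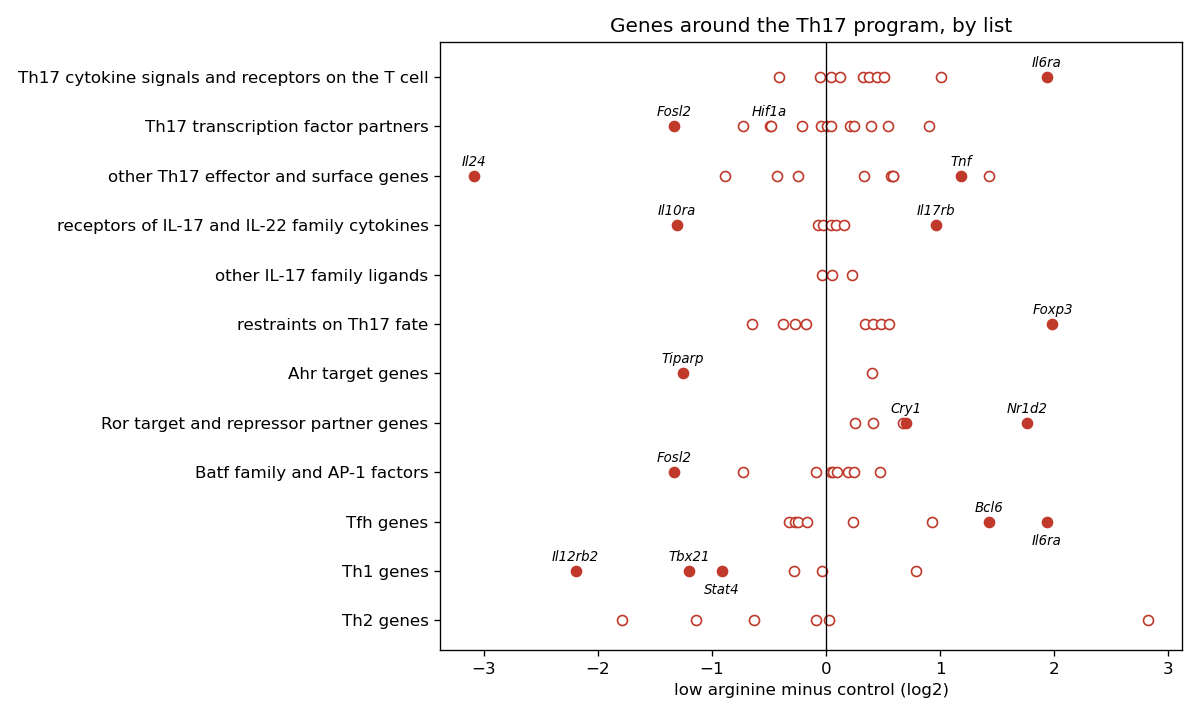
Log2 change in low arginine against control (x axis) for each tested gene of the 12 lists (y axis), filled and named where the adjusted p was under 0.05. A gene on several lists is drawn in each. Il6ra (1.94) and Foxp3 (1.98) lie at the right, and Il24 (-3.09) and the Th1 gene Il12rb2 (-2.20) at the left.

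Genes of neighbouring helper fates were read in the same way. Of 6 Th1 genes 3 fell and 0 rose, where 6.98% of all genes tested fell and 5.19% rose. Il12rb2, a receptor chain for interleukin 12, fell by 2.20 (limma adjusted p = 0.0061), Stat4, its signal carrier, by 0.91 (0.004), and Tbx21, the Th1 master factor, by 1.20 (0.0466). Ifng, the Th1 cytokine, was 3.20 ± 0.33 in low arginine and 3.23 ± 0.49 in control (SD, n = 3 each, adjusted p = 0.957). Eomes, on the same list, changed the other way, by 0.79 (limma unadjusted p = 0.0124, adjusted p = 0.0779), and its groups did not overlap. Of 8 follicular helper genes 2 rose and 0 fell: Il6ra, described above, and the factor Bcl6, by 1.42 (adjusted p = 0.0462). Of 6 genes listed as Th2 limma passed 0, and Gata3, their master factor, changed by -0.09 (adjusted p = 0.883). The 1 at an unadjusted p below 0.05 was Il9 (2.82, limma unadjusted p = 0.0168), a cytokine of Th9 cells. Il4 (-1.14), Il5 (-0.63) and Il13 (-1.79) changed the other way and did not pass. Il12rb2 and Stat4 passed in all 15 alternatives. Tbx21 missed the threshold when control array 1 (-0.97), 2 (-1.27) or 3 (-1.36) or array 1 (-1.18) or 3 (-0.92) of low arginine was removed (adjusted p = 0.0536 to 0.139). So did Bcl6 when control array 2 (1.41) or array 1 (1.45), 2 (1.29) or 3 (1.53) of low arginine was removed (adjusted p = 0.112 to 0.16).

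The labelled cell type was checked against markers. Limma passed none of 8 markers of CD4 T cells (1 at an unadjusted p below 0.05), and Cd4 lay at 9.96 to 10.3 in low arginine and 10.2 to 10.4 in control on the log2 scale. Other cells also make interleukin 17. Of 6 markers of gamma delta T cells, 2 were matched (Sox13 and Blk), with a summed level on the linear scale of 20.8 to 23.3 in low arginine and 19.4 to 21.3 in control. The other 4, among them Trdc, were not analysed here. The 8 markers of innate lymphoid and NK cells summed to 571 to 674 in low arginine and 1018 to 1572 in control. Of these, Il7r and Id2 fell, which CD4 T cells also express, and the defining Ncr1 and Klrb1c lay under the limit for dim genes on average. Both markers of CD8 T cells, Cd8a and Cd8b1, summed to 75.3 to 94.5 in low arginine and 98.4 to 155 in control. Of 6 B cell markers 5 were matched, which summed to 184 to 210 in low arginine and 296 to 403 in control. Ighm was by far the brightest (log2 mean 7.40 in low arginine and 8.29 in control), so the sum largely follows it. Ighm fell (-0.88 on the log2 scale, limma adjusted p = 0.0108), read from the brightest of its 7 probe sets. Cd79a (-0.02, adjusted p = 0.951), Cd79b (0.02, 0.948) and Pax5 (-0.22, 0.276) did not pass. Ms4a1 was too dim to be tested. Of 8 dendritic cell and macrophage markers 7 were matched, which summed to 37.0 to 41.4 in low arginine and 36.3 to 37.6 in control. The part of other cells in the rise of Il17a was not tested.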

How the data were processed

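Each RNA was hybridised to a 1-colour Affymetrix whole-transcript array, 3 per group. The authors deposited log2 expression values per probe set. Per the submitters' processing notes the oligo package was used. Its version, settings and log base were not given in the sources used here. Base 2 was inferred from the array type and from values of 0.956 to 12.4. No detection calls were used, and the number of arrays limits the precision.

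Probe sets with 1 gene symbol were kept, and the brightest by mean over 6 arrays stood for its gene. The dimmest genes (a share of 0.333, mean under 2.48) were left out. For the other 14787 the groups were set against each other without a block by lmFit and eBayes of limma 3.58.1 (R 4.3.3), two-sided, with 4 residual and 3.69 prior degrees of freedom, and Benjamini-Hochberg adjustment over all of them and a threshold of 0.05. The fit was tested on simulated data. Positive changes mean higher in low arginine.

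The members and lists were chosen with earlier results of these data known, so no p was adjusted over a list alone. Named were all members, every pathway gene past the threshold, 17 pathway genes whatever their result (1 is not reported here) and the 3 genes most correlated with each tested member. Further names were chosen with values in view. Alternatives were quantile normalization, centring on the median or the 75th percentile, no filter or a stricter filter on dim genes, averaging probe sets, a trended robust prior, array weights, a replicate block, and removal of each array in turn.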

Additional observations from a re-analysis of the deposited data

How the results depend on the processing

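The count of all genes past the threshold was 1799 (767 higher, 1032 lower). It was 500 to 3325 when single arrays were left out and 5514 with array weights. Centring on the 75th percentile gave 535 higher and 1190 lower. Of the members, 1 passed (0 to 1 with single arrays left out, 2 with array weights, namely Il17a and Il21). Of the other pathway genes, 15 passed (5 to 23 with single arrays left out, 41 with array weights). Il17a kept its call in 13 of 15 alternatives. Il17f, Rora and Ahr did not pass in any of the 15 alternatives and stayed positive in all of them. Il21 passed in 1. Directions that turned were all of genes that had not passed. Batf lay between -0.48 and 0.35 with single arrays left out and at 0.41 with array weights. Il10 was 0.078 with array weights. Il17ra lay between -0.10 and 0.34 with single arrays left out. Ifng lay between -0.22 and 0.25, and Gata3 between -0.30 and 0.25, with single arrays left out, and at 0.19 and 0.27 with array weights. With no filter on dim genes Bcl6 and Tbx21 lost their calls (adjusted p = 0.0584 each).

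Same-numbered arrays of the groups had correlations of 0.12, 0.06 and 0.14 between their deviations from the group means. Each array correlated best with its own number, but the labels do not pair them and 1 correlation was under 0.1. With the replicate number as a block 1568 genes passed, and among members Il17a alone (adjusted p = 0.00781). Of the pathway genes 15 passed with the block. Csf2 (adjusted p = 0.0199) and Il6st (0.0472) gained a call, and Hif1a (0.0526) and Bcl6 (0.0504) lost theirs. The small number of arrays and the lack of detection calls limit what can be said of dim genes such as Il22. The causes of these shifts were not tested.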

Other observations

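Control replicate 1, which had the highest Batf of all arrays, was also the control with the most type 2 and regulatory cytokine RNA. On the log2 scale it had 5.04 for Il10, against 2.18 and 2.73 in the other controls. It had 5.54 for Il4, against 3.04 and 3.38, and 8.40 for Il13, against 5.45 and 4.38. The low arginine arrays lay between 2.38 and 2.51 for Il10, 2.58 and 2.99 for Il4, and 3.79 and 4.60 for Il13. Il9, the cytokine of Th9 cells, had 6.59, 4.52 and 7.77 in low arginine, against 5.19, 2.55 and 2.68 in control (change 2.82, limma adjusted p = 0.0931). They were chosen with their values in view.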
